A study of Homo sapiens with 6 samples.

Results

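The chemokine receptor CXCR4, its ligand CXCL12, the second CXCL12 receptor ACKR3 (formerly CXCR7), the CXCL16 and CXCR6 ligand-receptor pair, the receptor CCR7 and the peptidase gene DPP4 were followed in C4-2 cells with and without androgen. The genes were taken by symbol, and all 7 were found among the 55765 gene symbols of the count files, ACKR3 under its current name. C4-2 is a castration-resistant subline of the lymph node-derived prostate cancer (PCa) cell line LNCaP, and all cultures were of this line. Over 72 h, 3 cultures received the solvent DMSO and 3 received 1 nM of the synthetic androgen R1881 (methyltrienolone), a supraphysiological androgen level (SAL). The libraries were numbered 1 to 3 in each group, and same-numbered libraries were treated as pairs. The set was chosen by the measured SAL against DMSO change of CXCR4, which was among the largest rises in these libraries, and the other genes were set beside it with their values in this contrast known, so all their changes are given as a description and without a test.

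CXCR4 is a G protein-coupled receptor that draws cells towards CXCL12, a chemokine made mainly by stromal cells, and it is known for the homing of blood stem cells and of metastatic PCa cells to bone. ACKR3 binds the same chemokine but signals through arrestins rather than G proteins and removes CXCL12 from the surroundings. CXCL16 is made as a membrane-bound protein that ADAM proteases release, CXCR6 is its receptor, CCR7 is the lymph node homing receptor for CCL19 and CCL21, and DPP4 (CD26) is a cell-surface peptidase that trims the amino terminus of CXCL12 and thereby inactivates it.

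Upstream sequences are shown for the receptor, the ligand and the peptidase of the CXCL12 axis, as the regions in which transcription of the genes described below is thought to start. Of the 7 genes, 4 had entries among the RefSeq promoters (GRCh38.p14), with 7 windows in all, and each window printed holds the 250 bases before an annotated start, 5′ to 3′ on the strand of the gene. For CXCR4, the outermost of its annotated starts is used (chr2:136118150-136118399, minus strand). For CXCL12 and DPP4, the windows are chr10:44385098-44385347 and chr2:162074216-162074465, both on the minus strand. Capitals mark the matches to any of the motifs searched.
CXCR4: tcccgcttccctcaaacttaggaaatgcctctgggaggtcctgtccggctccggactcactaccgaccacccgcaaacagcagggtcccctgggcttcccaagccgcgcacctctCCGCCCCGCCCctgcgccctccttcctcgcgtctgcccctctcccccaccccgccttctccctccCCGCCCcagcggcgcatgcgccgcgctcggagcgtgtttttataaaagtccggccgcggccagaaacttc
CXCL12: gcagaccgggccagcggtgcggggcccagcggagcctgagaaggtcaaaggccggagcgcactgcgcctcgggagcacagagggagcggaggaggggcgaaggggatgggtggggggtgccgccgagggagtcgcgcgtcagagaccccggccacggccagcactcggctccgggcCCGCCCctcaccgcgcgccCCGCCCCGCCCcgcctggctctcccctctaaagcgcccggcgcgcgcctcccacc
DPP4: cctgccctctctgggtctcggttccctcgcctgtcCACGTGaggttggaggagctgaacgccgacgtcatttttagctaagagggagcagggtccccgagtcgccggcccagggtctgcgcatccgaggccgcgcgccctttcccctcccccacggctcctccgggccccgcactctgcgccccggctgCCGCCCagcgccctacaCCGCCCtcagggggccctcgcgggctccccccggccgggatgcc
The first motif, searched like the others on both strands, was AGAACA, the core of the androgen response element. The full element was searched as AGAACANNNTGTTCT, which holds that core and its inverted copy. The hypoxia response element was searched by its core, ACGTG. The GC box, which SP and KLF factors bind, was searched as GGGCGG. The E-box that SNAI factors bind was searched as CAGGTG. Adjacent GC boxes overlap by 1 base in the CXCR4 and CXCL12 windows, and the palindrome in the DPP4 window counts once on each strand. The CXCR4 window held 3 GC boxes, at 135, 130 and 70 bases before the start, and the CXCL12 window also held 3. The DPP4 window held 2 GC boxes and 2 matches to ACGTG. GC boxes were present in 42.6% of all 35116 promoter windows of this length and ACGTG in 18.5%. None of the 7 windows of these genes matched AGAACA, which 12.4% of all windows held, and none held the full element, which 0.00285% held. CAGGTG was found in 17.5% of all windows and here only in 1 of the windows of CXCR6.

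RNA was measured by sequencing, and the values are reads per gene, given as counts or as CPM (counts relative to a TMM-normalized library size, with the mean and SD of 3 libraries). After removal of rRNA genes the libraries held from 6931042 to 9776990 counts. The rRNA genes had held from 11.9% (DMSO replicate 3) to 27.8% (SAL replicate 1) of the gene counts. Reads assigned to no gene feature made up from 24.0% (SAL replicate 2) to 48.3% (DMSO replicate 3) of all tallied reads. The known androgen-induced gene KLK3 rose by 1.21 on the log2 scale and was higher under SAL in all 3 pairs. All 10 markers of luminal prostate epithelium were detected well enough to be tested, with a summed level of 2766 to 5402 CPM in DMSO and 5264 to 11531 CPM in SAL, and 7 of them rose by edgeR with the replicate block, where 11.5% of all genes tested did. Of 12 leukocyte markers, 5 had no count in any library, PTPRC (CD45), CD3E and ITGAM among them, and the list, of which 1 gene could be tested, summed to between 0.987 and 3.34 CPM per library.

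CXCR4 had no count in any DMSO library and was detected in every SAL library. The gene lies on the minus strand of chromosome 2 (136871919 to 136876747 in GRCh37, the assembly of hg19). It had 31, 18 and 20 counts in SAL replicates 1, 2 and 3, or 3.97, 1.97 and 2.46 CPM (2.80 ± 1.04). The groups did not overlap. With 3 counts as the limit that a count of 0 allows (about the upper 95% Poisson limit), CXCR4 could have reached 0.372, 0.410 and 0.401 CPM unseen in DMSO replicates 1, 2 and 3. The observed SAL level was 7.11-fold this limit on average, and 10.7-fold, 4.81-fold and 6.15-fold in pairs 1, 2 and 3. These ratios leave out the counting error of the SAL counts, so the true ratios could be smaller. The limit is set on the upper side only. That of a 2-sided interval, as given next for SAL, would be higher and the ratios smaller. The exact 95% Poisson intervals of these SAL values ran from 2.70 to 5.64 CPM in replicate 1, from 1.17 to 3.12 CPM in replicate 2 and from 1.51 to 3.81 CPM in replicate 3, and these intervals overlap. These limits and intervals cover counting error only. In bulk RNA, a low level in all cells and a higher level in a few cells cannot be told apart. Among all gene symbols, 5 had no count in any DMSO library and at least 10 in each SAL library, namely CXCR4, ORM1, EMP1 and the clone-named loci AC078864.1 and AC078864.2, while 0 had the opposite pattern. EMP1 was named once its counts were known.

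ACKR3, the scavenging receptor, was lower in SAL in every pair. It lies on the plus strand of chromosome 2 (237476430 to 237490997). ACKR3 had 666, 1438 and 421 counts in DMSO replicates 1, 2 and 3, or 82.5, 197 and 56.3 CPM. In the SAL replicates it had 143, 612 and 117 counts, or 18.3, 67.1 and 14.4 CPM. Replicate 2 was the highest library in both groups, and its SAL level lay above that of DMSO replicate 3, so the groups overlapped although each pair fell. The mean went from 112 ± 74.6 to 33.3 ± 29.4 CPM. Within pairs the SAL level was 22.2%, 34.1% and 25.6% of the DMSO level. The fitted log2 fold change was -1.86 (standard error 0.12), which places ACKR3 at rank 65 among the falls of all 16835 genes tested and at rank 19 among the 10282 genes with a mean of at least 10 CPM in DMSO.

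**Figure D1:**
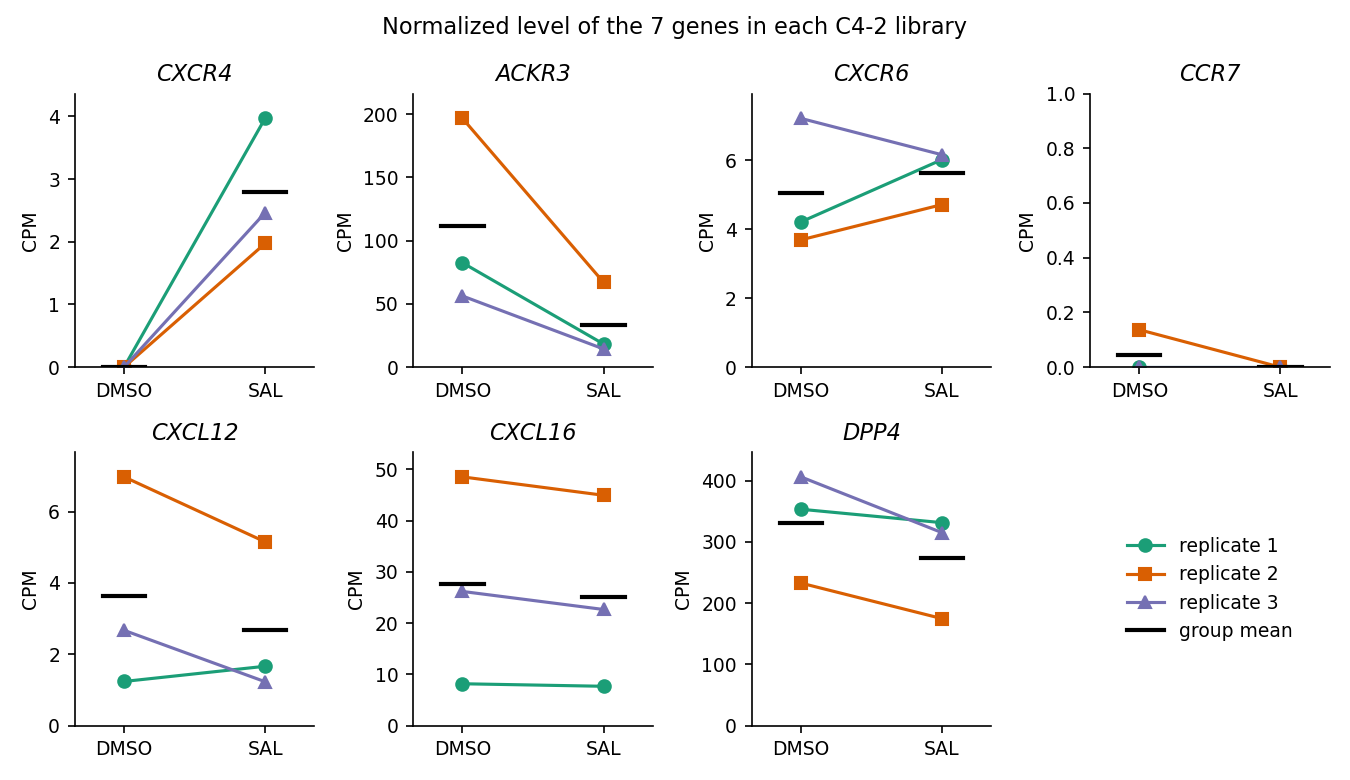
Level of each gene in CPM (vertical axis, from 0, with its own scale per gene) in the DMSO and SAL libraries; lines join same-numbered libraries and black bars are group means. CXCR4 goes from 0 to between 1.97 and 3.97 CPM, all 3 lines of ACKR3 fall, and the lines of CXCL16 are nearly level but far apart.

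The receptors CXCR6 and CCR7 showed no such pattern. CXCR6, on the plus strand of chromosome 3 (45982425 to 45989843), had 34, 27 and 54 counts in the DMSO replicates and 47, 43 and 50 in the SAL replicates. It was higher in SAL in pairs 1 and 2 and lower in pair 3, and the groups overlapped. Its mean was 5.04 ± 1.90 CPM in DMSO and 5.63 ± 0.80 CPM in SAL, a log2 fold change of 0.19 (standard error 0.24). CXCR6 lies within FYCO1, an autophagy adaptor gene on the opposite strand, without sharing exons with it, and the counting ignored strand, so reads from unspliced FYCO1 RNA cannot be told apart from CXCR6. FYCO1 had 369, 1241 and 972 counts in the DMSO replicates and 455, 2010 and 1193 in the SAL replicates. Its lowest library in each group was replicate 1, and that of CXCR6 was replicate 2. The log2 ratios of FYCO1 were 0.35, 0.38 and 0.18 in pairs 1, 2 and 3, and those of CXCR6 were 0.49, 0.33 and -0.22. The part of FYCO1 reads in the CXCR6 counts was not tested. CCR7, on the minus strand of chromosome 17 (38710021 to 38721724), had a single count, in DMSO replicate 2, and was too low to be tested.

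Of the ligands, CXCL12 was scarce and did not change in the same direction in all pairs. It lies on the minus strand of chromosome 10 (44865613 to 44881941). CXCL12 had 10, 51 and 20 counts in the DMSO replicates (1.24, 6.97 and 2.67 CPM) and 13, 47 and 10 in the SAL replicates (1.66, 5.15 and 1.23 CPM). Replicate 2 was the highest in both groups. The SAL level of CXCL12 was 134%, 73.9% and 46.1% of the DMSO level in pairs 1, 2 and 3, and the fitted log2 fold change was -0.42 (standard error 0.32). Of 9 markers of fibroblasts and stroma, the cells that mostly make this chemokine, COL1A2 had no count in any library, and the list summed to between 5.70 and 16.7 CPM in DMSO and between 14.5 and 18.5 CPM in SAL. Only 2 of these markers could be tested. ACTA2 (smooth muscle actin) rose by 2.61 on the log2 scale (edgeR with the replicate block, adjusted p = 6.63e-06), and COL1A1 had a log2 ratio of 0.21 (adjusted p = 0.577). Without ACTA2 the other 8 markers summed to between 4.21 and 15.6 CPM in DMSO and between 3.59 and 11.6 CPM in SAL. COL3A1, one of the 7 not tested, had 6, 4 and 3 counts in the DMSO replicates and 2, 0 and 1 in the SAL replicates.

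CXCL16, on the minus strand of chromosome 17 (4636828 to 4643223), differed far more between replicate numbers than between treatments. It had 66, 355 and 196 counts in the DMSO replicates, or 8.18, 48.5 and 26.2 CPM. In the SAL replicates it had 60, 410 and 184 counts, or 7.68, 45.0 and 22.7 CPM. The highest library was 5.94 times the lowest within DMSO and 5.85 times within SAL, with the replicate numbers in the same order. The log2 fold change was -0.14 (standard error 0.13), with -0.09, -0.11 and -0.21 in the 3 pairs. Of the sum of squares of its log2 CPM, 99.5% lay between replicate numbers, compared with 86.7% for CXCL12, 84.4% for DPP4, 67.9% for CXCR6, 44.9% for ACKR3 and 1.15% for CXCR4. The share of CXCR4 is not comparable with the others. Its DMSO libraries, all without a count, have the same log2 CPM and cannot differ by replicate number. Exons of CXCL16 overlap those of MED11 by 76 bases and those of ZMYND15 by 96 bases, both on the opposite strand, and reads there cannot be assigned by strand.

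DPP4 was by count the most abundant of the genes, and its change was small. It lies on the minus strand of chromosome 2 (162848755 to 162930904). DPP4 had 2853, 1703 and 3041 counts in the DMSO replicates and 2589, 1595 and 2559 in the SAL replicates. This was 331 ± 88.9 CPM in DMSO and 274 ± 86.1 CPM in SAL. It was lower in SAL in all 3 pairs, at 93.8%, 75.1% and 77.6% of the DMSO level, and the groups overlapped. The log2 fold change was -0.29 (standard error 0.10). Exons of DPP4 overlap those of the noncoding gene DPP4-DT, on the opposite strand, by 174 bases, and reads there cannot be assigned by strand.

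**Figure D2:**
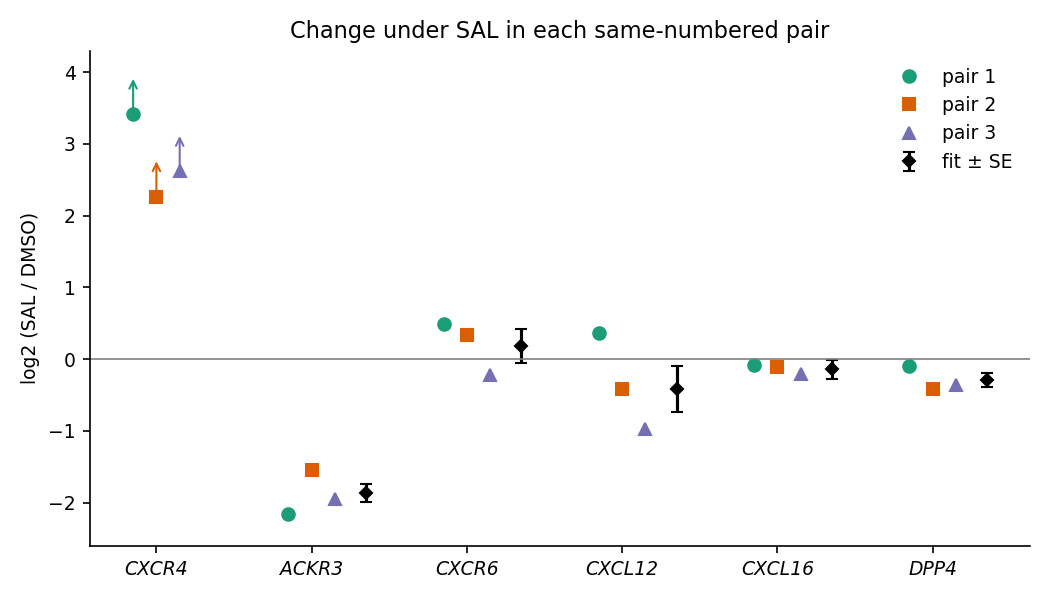
Log2 ratio of SAL to DMSO for the 6 genes that were tested, in each same-numbered pair (coloured points) and as the fitted value with its standard error (black diamonds). CXCR4 is drawn at its SAL level over the limit of 3 counts in DMSO, with arrows upwards and without a fitted value. ACKR3 lies between -2.16 and -1.55 in the 3 pairs, and the points of CXCR6 and CXCL12 fall on both sides of 0.

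CXCR4 was the only gene of the 7 with groups that did not overlap, a pattern that 3.78% of all genes tested showed in the same direction. The set was chosen by this rise. With no count in any DMSO library, CXCR4 could be tested only through its SAL libraries. Its separation was therefore fixed beforehand, and the 3.78% is no measure of how unusual it is. CXCR4, ACKR3, CXCL16 and DPP4 moved in the same direction in all 3 pairs, as did 51.2% of all genes tested.

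Set against the length of all annotated exons, the order of the genes in DMSO was ACKR3 (54.0 ± 36.1 CPM per kb), DPP4 (22.9 ± 6.16), CXCL16 (9.89 ± 7.24), CXCR6 (1.34 ± 0.50), CXCL12 (0.59 ± 0.49), CCR7 (0.018 ± 0.031) and CXCR4, which had no count. In SAL, the levels were 18.98 ± 5.97 CPM per kb for DPP4, 16.1 ± 14.2 for ACKR3, 8.99 ± 6.71 for CXCL16, 1.49 ± 0.21 for CXCR6, 0.97 ± 0.36 for CXCR4 and 0.44 ± 0.35 for CXCL12. Several neighbours in this order changed places between libraries. ACKR3 was above DPP4 in 2 of 3 DMSO libraries and in 1 of 3 SAL libraries with the length of all exons, and in 1 and 0 with the length of the canonical transcript. DPP4 was above CXCL16 in 2 of 3 DMSO and 2 of 3 SAL libraries with the length of all exons, and in all 6 with the canonical length. ACKR3 was above CXCL16 in all 3 DMSO libraries but in 2 of 3 SAL libraries, with either length. CXCL16 was above CXCR6 in all 6 libraries with either length. CXCR6 was above CXCL12 in 2 of 3 DMSO libraries with either length, and in 3 SAL libraries with all exons but 2 with the canonical transcript. In SAL, CXCR6 was above CXCR4 in all 3 libraries, and CXCR4 was above CXCL12 in 2 of 3. ACKR3 remained above CXCR4 in every SAL library, by 6.47, 47.7 and 8.20 times per length in replicates 1, 2 and 3. Per length, the ratio of ACKR3 to CXCL12 was 198, 83.7 and 62.5 in the DMSO replicates and 32.6, 38.6 and 34.7 in the SAL replicates. The SAL range lay wholly below that of DMSO. CXCL12 had only 10 counts in DMSO replicate 1 and in SAL replicate 3, so these ratios are imprecise. How often other pairs of genes show such a separation was not tested.

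**Figure D3:**
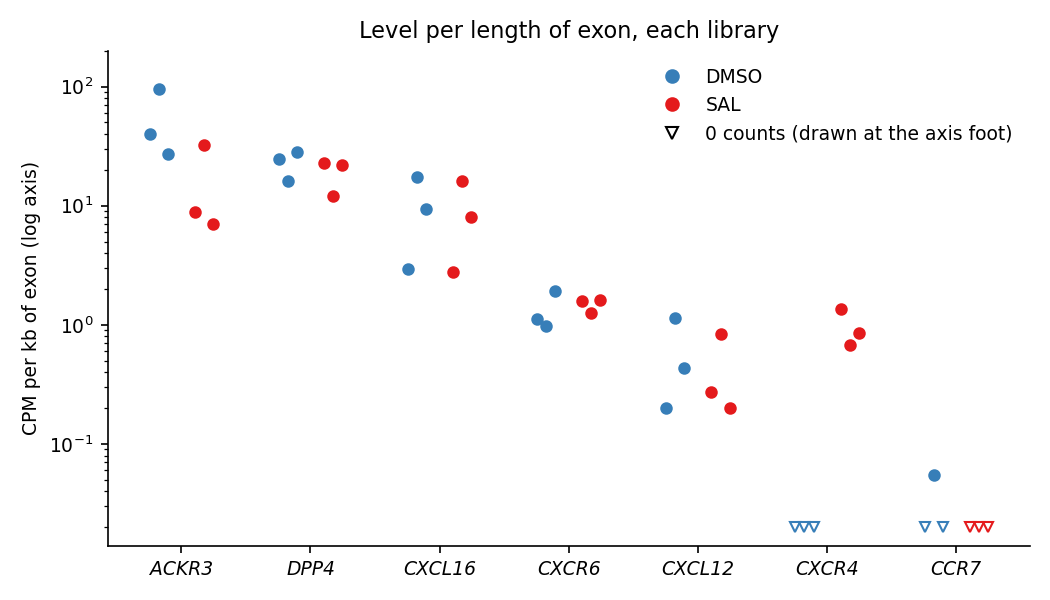
Level per length of exon (CPM per kb, log axis) in each library, DMSO in blue and SAL in red, with libraries without a count drawn as open triangles at the foot of the axis. ACKR3, DPP4 and CXCL16 lie above CXCR6 and CXCL12 in every library, and CXCR4 appears only in the SAL libraries, between 0.68 and 1.37 CPM per kb.

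The genes most like each of them over the 6 libraries were sought by Pearson's r of log2 CPM among 16803 genes, as a description, since the points share their libraries and treatment. For CXCR4 they were HPGD (0.993), GLUD2 (0.993) and the clone-named AC073869.1 (0.993), out of 90 genes with r over 0.95. The DMSO libraries of CXCR4, all without a count, have the same log2 CPM. Its r therefore largely follows the split into DMSO and SAL and says little about a shared course within the groups. For ACKR3 the genes most like it were C14orf80 (0.985), ANP32B (0.978) and GARS (0.978), out of 31. CXCL12 was most like PPOX (0.995), MECR (0.992) and LGI4 (0.992), out of 61. CXCL16 was most like GRK6, PPM1F and SNX17 (r of 0.999 for each), but 2388 genes had r over 0.95 with it. DPP4 was most like KIF4B (0.999), LINC00641 (0.997) and HHIP (0.997), but 495 genes had r over 0.95 with it. CXCR6 was most like ZNF137P (0.992), CD160 (0.991) and a locus known only by a clone name (0.980), out of 16.

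Other chemokine genes were almost silent in C4-2 cells. Of 46 other chemokine ligands, 31 had no count in any library and 43 had at most 3 counts in each, the highest value being 8 counts, for CCL5. Of 19 other chemokine receptors, 5 had no count and 12 had at most 3 counts in each library, the highest value being 15 counts, for the decoy receptor ACKR2. CCL5 and ACKR2 were named once their counts were known. None of these 65 genes was abundant enough to be tested, which is a limit of depth and does not show that they are absent.

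Across all the lists of other genes of the pathway, 69 of 158 genes could be tested, of which 9 were higher (13%, against 11.5% of all genes tested) and 5 were lower in SAL (7.25%, against 9.37%). The median log2 fold change was 0.08, and that of all genes tested was -0.0011. The shares were close to those of all genes. The counts for the single lists below rest on few genes and are to be read beside the shares of all genes.

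Among regulators of transcription that are known to act on CXCR4 or in its response to hypoxia, 3 of the 10 tested rose and none fell, with a median log2 fold change of 0.10 for the list. SNAI2 (SLUG), a zinc-finger factor of epithelial-mesenchymal transition, had 40, 9 and 20 counts in the DMSO replicates and 371, 207 and 193 in the SAL replicates. All SAL libraries of SNAI2 lay above all DMSO libraries, and the fitted rise was 3.42 ± 0.20 (SE) on the log2 scale (edgeR with the block, adjusted p = 9.75e-09). KLF5, a Krüppel-like factor of epithelial cells, had 35, 57 and 67 counts in the DMSO replicates and 90, 322 and 316 in the SAL replicates. The groups of KLF5 did not overlap either, and the fitted rise was 1.96 ± 0.18 (SE) on the log2 scale (edgeR with the block, adjusted p = 1.14e-06). HIF1A, the oxygen-regulated subunit of hypoxia-inducible factor, went from 212 to 320 CPM on average, a rise of 0.56 on the log2 scale (edgeR with the block, adjusted p = 0.00175), and its groups overlapped. EPAS1, the related HIF subunit, had a log2 ratio of 1.13 that did not pass the threshold (edgeR with the block, adjusted p = 0.0779) and was named once its value was known.

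Of the signalling effectors below the receptors, 5 of 29 tested rose and 1 fell (median log2 fold change 0.11). The inhibitory G protein subunits GNAI2 and GNAI3, which couple to CXCR4, rose by 0.45 and 0.30 on the log2 scale (edgeR with the block, adjusted p = 0.0201 for GNAI2 and 0.0360 for GNAI3). The gamma subunit GNG5 rose by 0.57 and the transcription factor STAT3 by 0.42 (edgeR with the block, adjusted p = 0.00577 for GNG5 and 0.00589 for STAT3). With DESeq2 and the block, GNAI2 and GNAI3 did not pass (adjusted p = 0.0888 and 0.127) and 2 effectors were called higher, and without replicate 3 there were 0 (adjusted p by edgeR of 0.424 for GNAI2, 0.508 for GNAI3, 0.174 for GNG5 and 0.202 for STAT3). PIK3R1, the regulatory subunit of PI3 kinase, fell from 266 to 163 CPM on average, a log2 ratio of -0.73 (edgeR with the block, adjusted p = 4.99e-05) and a decrease in all 3 pairs.

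Of the genes that desensitise or traffic the receptors, such as GRK kinases, arrestins and RGS proteins, 1 of 17 tested rose and 1 fell (median 0.12). These were RGS4, with a log2 fold change of 0.85, and RGS3, with -0.39 (edgeR with the block, adjusted p = 0.0283 for RGS4 and 0.0139 for RGS3), both of which speed up the inactivation of G proteins. Neither passed with DESeq2 and the block (adjusted p = 0.101 for RGS4 and 0.0721 for RGS3) or, by edgeR, without replicate 2 (0.117 and 0.0581) or replicate 3 (0.271 and 0.156). None of the 11 peptidases and proteoglycans tested rose and 2 fell (median 0.03). SDC4, a syndecan whose heparan sulphate chains bind chemokines, fell from 145 to 55.3 CPM on average, a log2 ratio of -1.36 ± 0.11 (SE, edgeR with the block, adjusted p = 5.66e-07). SDC1, another syndecan, fell by 0.58 on the log2 scale (edgeR with the block, adjusted p = 0.00940). ADAM10 and ADAM17, the proteases that release CXCL16, had log2 ratios of 0.10 and 0.06 (edgeR with the block, adjusted p = 0.546 for ADAM10 and 0.791 for ADAM17) and were named once their values were known. Of the other ligands and partners, 2 of 5 could be tested. HMGB1, which forms a complex with CXCL12, fell by 0.42 on the log2 scale (edgeR with the block, adjusted p = 0.00536), and MIF, an alternative ligand of CXCR4 named once its value was known, had a log2 ratio of 0.31 (edgeR with the block, adjusted p = 0.499). In a fit without replicate 3, only SNAI2 and KLF5 among the pathway genes rose and only PIK3R1 and SDC4 fell (edgeR), and in a fit that ignored the pairing (no replicate block) 0 passed.

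**Figure D4:**
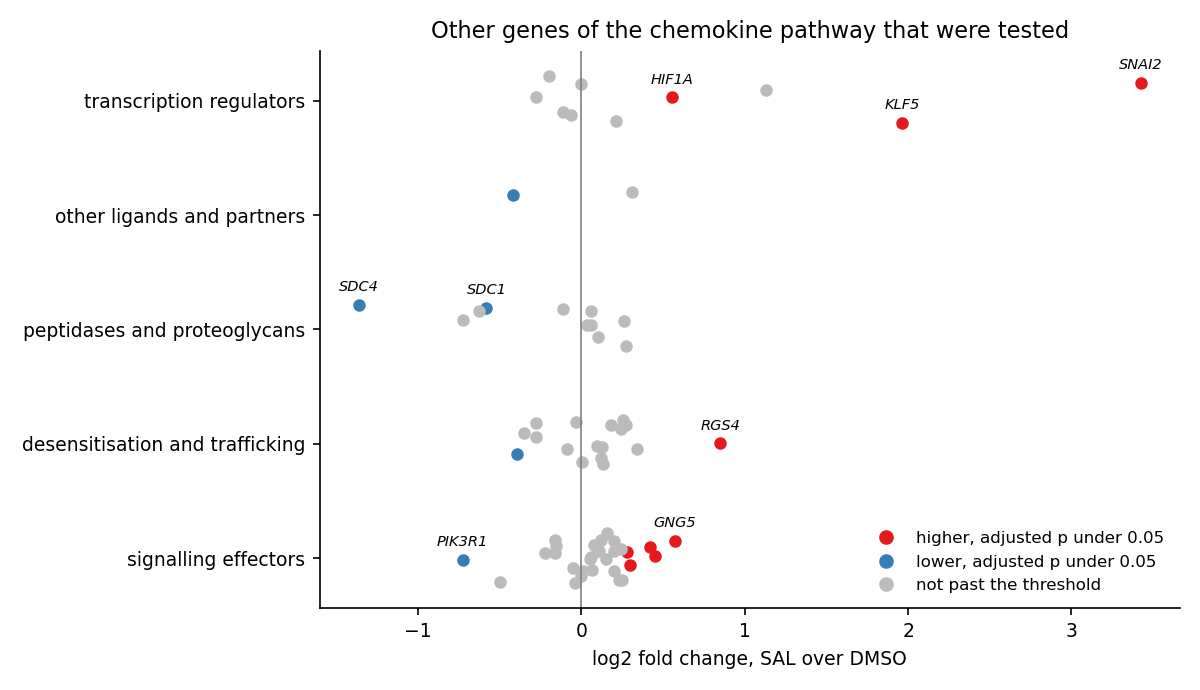
Log2 fold change (SAL over DMSO, horizontal axis) of the 69 other pathway genes tested, by list, with genes past an adjusted p of 0.05 in red (9 higher) or blue (5 lower) and the others in grey. SNAI2 and KLF5 lie farthest to the right and SDC4 farthest to the left, while most grey points lie near 0.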

How the data were processed

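Total RNA of C4-2 cells was sequenced in 6 libraries, 3 per treatment. According to their methods, the authors aligned the trimmed first reads of the read pairs to the hg19 genome (TopHat2 2.1.0 per the labels) and assigned them to gencode exons, ignoring strand, with htseq-count 0.11.2. The deposited values are raw counts per gene symbol. The 5 tallies of unassigned reads were left out.

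As the study did, rRNA genes (523 symbols) were taken out first, and edgeR's filterByExpr left 16835 genes. SAL was compared with DMSO by edgeR 4.0.16 (R 4.3.3) with TMM normalization, the robust quasi-likelihood test, a block for the replicate number, after the paired test of the study, and Benjamini-Hochberg adjustment over all genes tested. Same-numbered libraries deviated together from their group means (correlations of 0.89, 0.86 and 0.74), and the study describes 3 independent experiments. Standard errors were derived from the log2 fold change and its F statistic. Changes per pair use log2 CPM with a prior count of 2. On simulated data with 187 changed genes among 16300 tested, 73.2% of 2-fold and 97.8% of 4-fold changes were called, and 1.85% of the calls were unchanged genes. The simulated spread between replicates followed the trend over expression level and not each gene's own spread. These rates therefore need not hold for the measured data.

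The genes described and the pathway and marker lists were chosen with earlier results of these data known. From the lists, the text names up to 4 called genes per list and direction with the largest change, KLF5, HIF1A and KLK3, and for each gene described the 3 genes most like it. The endothelial marker PECAM1 was not found among the gene symbols counted. Of the other 6, which summed to at most 5.08 CPM, only VWF could be tested and was not called (edgeR with the block, adjusted p = 0.669). Gene positions and lengths come from GRCh37 with lifted GENCODE v44, a later annotation than that of the counts. Alternatives were DESeq2 1.42.0, the size factors of DESeq2, a fit without the block, leaving out the filter, a minimum of 10 counts per library, keeping rRNA genes and dropping each replicate number. The canonical transcript length was an alternative added once the data were known.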

Additional observations from a re-analysis of the deposited data

How the results depend on the processing

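For CXCR4, the observed SAL level was set against the limit of 3 counts in DMSO. This ratio was between 7.11 and 7.21 under every alternative that kept all libraries and to which it applied. With 1 replicate number left out it was between 5.47 and 8.31. With at least 10 counts required in every library CXCR4 was not tested. The log2 fold changes of ACKR3, DPP4, CXCL12, CXCL16 and CXCR6 kept their sign under all alternatives and moved by less than the SD of their pairs. That of ACKR3 was -1.75 without the replicate block and between -2.09 and -1.70 with a replicate number left out, and that of CXCR6 ran from 0.024 to 0.44. With the canonical transcript length the DMSO level of DPP4 was 92.6 CPM per kb, that of CXCL12 1.88 and that of CXCR6 2.56.

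Without the replicate block, 18 of all genes were called higher and 3 lower (654 genes had an unadjusted p under 0.05), and 0 and 0 of the pathway genes (KLF5 then had an adjusted p of 0.472 and SNAI2 of 0.115, by edgeR). With DESeq2 and the block, 1290 of all 16835 genes were called higher and 950 lower. Of the 69 pathway genes, 5 were then called higher and 4 lower. With a replicate number left out, the genes called higher ran from 750 (without replicate 3) to 2443 (without replicate 1) and those called lower from 483 to 1955, and the pathway genes called higher from 2 to 11 and lower from 2 to 8 (without replicate 1). Each fit with a replicate number left out rests on 4 libraries. The cause of these differences was not tested. Of the 16 single genes followed outside the set, the calls of 10 were kept with DESeq2 and the block, of 16 without replicate 1, of 10 without replicate 2, of 5 without replicate 3 and of 0 without the block. GNAI2, GNAI3, RGS3 and RGS4 were among those lost with DESeq2. The counts of CXCR4, CXCL12 and CXCR6 are too low to show changes of small size.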
